A study of Mus musculus with 8 samples.

Results

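Interferon response and antigen presentation genes were followed by RNA sequencing in mouse primary hepatocytes cultured on a soft or a stiff hydrogel, with or without Yap and Taz. The set held 41 genes of the 56748 in the count table. They were chosen by name for their known role, with earlier results of these data known, and their rows were found by gene symbol. Of these, 31 are interferon response genes and 10 belong to the machinery that presents peptides on major histocompatibility complex (MHC) class I molecules. All 41 passed the filter on low counts, which 14279 genes passed.

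All mice were C57BL/6J animals carrying floxed alleles of both genes, Yap fl/fl and Taz fl/fl. By the study's methods they were 7 to 8 weeks old when injected with virus. The Yap/TazHepKO group (knockout, KO) received the AAV8-TBG-Cre virus into a vein, in which the TBG promoter drives Cre in hepatocytes, and the wild-type (WT) group received AAV8-TBG-Null. Hepatocytes were isolated after 10 days and cultured for 24 h on collagen-coated polyacrylamide hydrogels of 1 kPa (soft) or 20 kPa (stiff), with 2 libraries in each of the 4 groups. Both groups thus carried the floxed alleles and an AAV8 vector. The study's methods state that Cre also switched on a tdTomato reporter. Cre itself, the reporter and the loss of Yap and Taz cannot be told apart. The labels do not say whether the 2 libraries of a group came from separate animals or cultures, so p-values measure the spread between these libraries, which may be technical.

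Interferons are secreted proteins that bind cell surface receptors and switch on a large set of genes through JAK kinases and STAT proteins. Type I and type III interferons act through a complex that holds STAT2 and IRF9 and binds the interferon-stimulated response element (ISRE), and interferon gamma acts on the gamma-activated site (GAS). Many of the induced proteins bind viral RNA, block viral assembly or attack the vacuoles of intracellular pathogens. The same signals raise the class I pathway, in which immunoproteasome subunits cut proteins, the TAP transporter carries the peptides into the endoplasmic reticulum, and MHC class I molecules show them at the cell surface. Hepatocytes express interferon receptors and are a known target of interferons in viral hepatitis. YAP and TAZ are transcriptional coactivators that respond to the stiffness of the matrix and bind DNA through TEAD proteins.

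Promoters are shown for 6 members that hold an ISRE or GAS match in front of the transcript start and had the largest difference between the genotypes in their response to stiffness. Each line gives the 250 bases before a RefSeq transcript start on assembly GRCm38.p6, 5′ to 3′ on the strand of the gene. Ifit2 had another RefSeq start, whose promoter held no ISRE or GAS match and is not shown. Capitals mark the match, which is an ISRE (TTTC, any 2 bases, then TTTC, either strand) in Irgm1, Isg15, Ifit3 and Cxcl10 and a GAS (TTCNNNGAA) in Ifit2 and Plscr1. The windows are chr19:34550444-34550693 on the plus strand for Ifit2, chr11:48871421-48871670 on the minus strand for Irgm1 and chr9:92249944-92250193 on the plus strand for Plscr1. Those of the other three are chr4:156200819-156201068 on the minus strand for Isg15, chr19:34583279-34583528 on the plus strand for Ifit3 and chr5:92348890-92349139 on the minus strand for Cxcl10.
Ifit2: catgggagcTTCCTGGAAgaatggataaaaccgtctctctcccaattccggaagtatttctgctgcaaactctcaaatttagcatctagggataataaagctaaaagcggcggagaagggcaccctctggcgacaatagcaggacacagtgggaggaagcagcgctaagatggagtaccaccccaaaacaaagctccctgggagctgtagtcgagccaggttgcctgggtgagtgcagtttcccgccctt
Irgm1: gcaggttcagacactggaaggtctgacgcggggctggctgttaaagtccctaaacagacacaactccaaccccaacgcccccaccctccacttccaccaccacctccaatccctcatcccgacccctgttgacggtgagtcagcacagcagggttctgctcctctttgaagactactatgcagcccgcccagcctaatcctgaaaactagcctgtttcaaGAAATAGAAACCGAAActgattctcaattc
Plscr1: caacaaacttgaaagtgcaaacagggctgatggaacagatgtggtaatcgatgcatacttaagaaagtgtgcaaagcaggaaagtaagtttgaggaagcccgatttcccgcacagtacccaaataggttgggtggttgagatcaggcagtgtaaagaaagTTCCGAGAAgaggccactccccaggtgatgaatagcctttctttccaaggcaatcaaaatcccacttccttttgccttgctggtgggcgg
Isg15: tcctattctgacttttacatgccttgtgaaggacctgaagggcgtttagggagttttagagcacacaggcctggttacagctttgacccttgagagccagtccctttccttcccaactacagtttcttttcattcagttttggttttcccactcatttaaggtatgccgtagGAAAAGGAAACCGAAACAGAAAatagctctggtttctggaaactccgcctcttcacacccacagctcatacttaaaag
Ifit3: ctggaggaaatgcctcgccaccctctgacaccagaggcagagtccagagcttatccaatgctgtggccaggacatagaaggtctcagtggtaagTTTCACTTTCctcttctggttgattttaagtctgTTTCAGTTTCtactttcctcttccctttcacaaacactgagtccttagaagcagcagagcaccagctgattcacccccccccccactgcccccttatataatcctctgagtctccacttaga
Cxcl10: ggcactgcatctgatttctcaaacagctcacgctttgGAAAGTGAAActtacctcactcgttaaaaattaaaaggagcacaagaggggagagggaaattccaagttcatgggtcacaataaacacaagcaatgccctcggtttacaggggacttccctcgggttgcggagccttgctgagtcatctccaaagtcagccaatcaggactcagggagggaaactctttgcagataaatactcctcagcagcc
In Isg15 the capitals run through 3 overlapping ISRE matches, in Irgm1 through 2 overlapping ones, and in Ifit3 they mark 2 separate ones. Cxcl10 holds 1 ISRE match far from the start, and Ifit2 and Plscr1 hold 1 GAS match each.

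Library totals were between 18324083 and 26442310 counts. The chi-square statistic per degree of freedom between the 2 libraries of a group was 2.62 to 5.45, so replicates differed by more than the sampling noise of counts. Levels are given as normalized counts relative to the library's TMM-scaled total (CPM). A gene was called where its log2 fold change was over 0.5 in size and its edgeR quasi-likelihood p, adjusted over the 14279 genes by Benjamini and Hochberg, was under 0.05. Yap1 was at 95.5 to 140 CPM in the WT libraries and 28.4 to 31.8 CPM in the KO libraries, and Wwtr1, which encodes TAZ, was at 41.5 to 65.2 and 13.7 to 16.6 CPM. The YAP/TAZ targets Ccn1, Ccn2 and Ankrd1 were called higher on the stiff hydrogel in WT (log2 fold changes 1.72, 3.32 and 3.15) and lower in KO on both hydrogels. The design text gives female mice, while the growth protocol and the study's methods give male mice. Xist had 4818 to 8443 counts in every library, and the Y-linked genes Ddx3y, Eif2s3y, Kdm5d and Uty had 0 counts, where a count of 0 allows up to 3 counts, or 0.113 to 0.164 CPM. This limit covers counting error only, and within it the counts go with female mice.

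Markers of the labelled cell type were far above those of other cell types in every library. The 8 hepatocyte markers summed to 91688 to 95362 CPM in WT and 63670 to 64302 CPM in KO, and most of this sum was Alb, with means of 81923 and 86595 CPM in WT on soft and stiff and 54977 and 54678 CPM in KO. Hnf4a went the other way, with means of 372 and 189 CPM in WT and 423 and 426 CPM in KO, as did Tat and Ttr. The 12 markers of Kupffer cells and macrophages, which also use interferon response genes, summed to 102 to 106 CPM in WT on soft, 70.5 to 77.3 CPM in WT on stiff and 149 to 154 CPM in KO. Endothelial markers (8 genes) summed to 62.8 to 68.8, 49.5 to 50.9 and 81.8 to 87.0 CPM in the same order, and stellate cell and fibroblast markers (8 genes) to 34.4, 23.6 to 25.3 and 47.8 to 53.9 CPM. The 12 markers of lymphocytes and dendritic cells stayed at or under 3.53 CPM in sum, with Cd3e, Klrb1c and Xcr1 at 0 in every library. Cholangiocyte markers (6 genes) summed to 60.1 to 63.7 CPM in WT on soft, 83.2 to 86.0 CPM in WT on stiff and 54.8 to 61.1 CPM in KO, with Cftr at 0. Most of that rise was Krt19, from a mean of 2.13 to 20.6 CPM, while Sox9 was at 38.5 and 40.1 CPM. The summed markers of macrophages, endothelial and stellate cells were thus lowest in WT on stiff, where most of the interferon response genes were highest, while single markers such as Col1a1 and Oit3 were highest there. The part of these cells in the results was not tested. In bulk RNA, fewer cells of a type and less RNA per cell cannot be told apart.

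The 41 genes split along their roles. Most interferon response genes were highest in WT hepatocytes on the stiff hydrogel, intermediate in WT on the soft one and lowest in KO, where the hydrogel made little difference. The class I heavy and light chains and most of the peptide loading genes moved little in any comparison. Over the 41 genes, the median deviation from the gene's mean log2 CPM was 0.181 and 0.141 in the WT soft libraries, 0.552 and 0.568 in the WT stiff libraries and between -0.37 and -0.344 in the 4 KO libraries. At least 1 of the 5 comparisons called 31 of the 41 genes. The same count over all tested genes was not made, and their shares are given below by comparison.

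**Figure D1:**
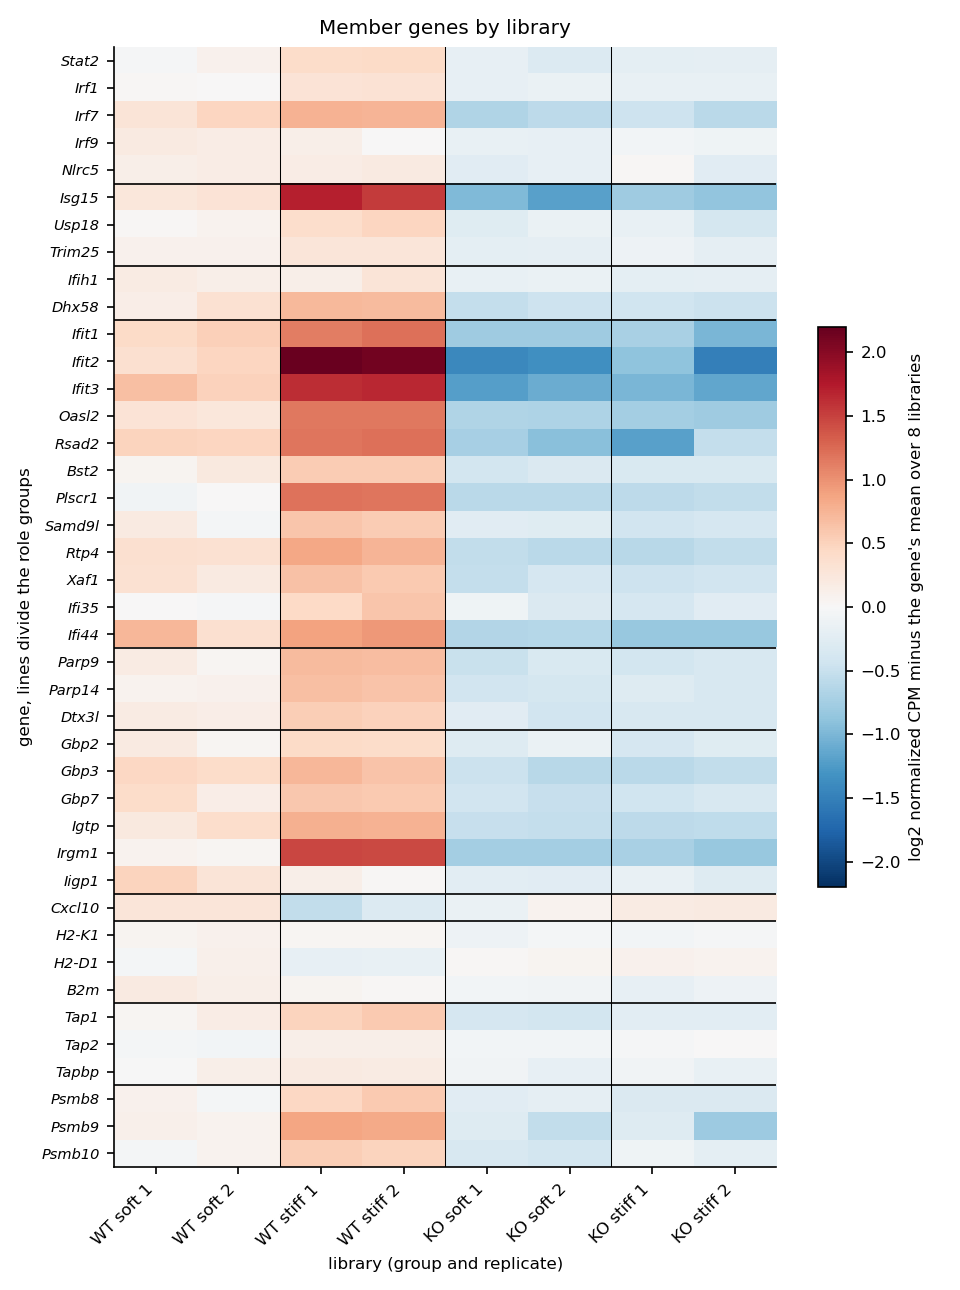
Log2 normalized CPM of each of the 41 genes minus the mean of that gene over the 8 libraries, by library (columns, 2 per group) and role group (rows, divided by lines), with red above and blue below the mean. The WT stiff columns are red for most genes down to Irgm1 and the 4 KO columns blue, while Cxcl10 runs the other way and H2-K1, H2-D1, B2m, Tap2 and Tapbp stay pale.

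The comparison of stiff with soft in WT hepatocytes asks how the genes respond to the matrix. On the stiff hydrogel 12 of the 41 genes were called higher, beside 10.0% of all tested genes, and 1 was called lower, Cxcl10, beside 9.26%. The 12 were Isg15, Ifit1, Ifit2, Ifit3, Oasl2, Rsad2, Plscr1, Ifi35, Parp9, Parp14, Irgm1 and Psmb9. The median log2 fold change was 0.39 over the 41 genes and -0.009 over all tested genes. Ifit2 had the largest rise, 3.34-fold (log2 fold change 1.74, SE 0.159, adjusted p = 6.73e-08). With no minimum fold change 32 of the 41 passed the adjusted p upward and 4 downward, so the count of 12 rests on the size of the changes. The share of all tested genes that passed without a minimum fold change was not counted.

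In KO hepatocytes edgeR called none of the 41 genes between stiff and soft, and DESeq2 called 0 as well. Of all tested genes 0.014% were called higher and 0.007% lower. The log2 fold changes lay between -0.18 (Ifi44) and 0.25 (Isg15), with a median of 0.01. At an unadjusted p under 0.05 there were 3 higher, Isg15, Tap1 and Psmb10, and 1 lower, B2m, named after their values were seen. The difference of the 2 stiffness effects was tested as an interaction, the KO effect minus the WT effect. It was called lower for 15 genes, beside 8.21% of all tested genes, and higher for 1, Cxcl10, beside 8.64%. Its median was -0.38 over the 41 genes and 0.015 over all tested genes. Of the 13 genes called in WT, 12 were called in the interaction, and Parp14 was not (log2 difference -0.48, SE 0.0703, adjusted p = 3.82e-05, under the minimum size). The WT effect is a term of the interaction and the KO effects were small, so this overlap was largely fixed in advance. The same overlap was not counted over all tested genes.

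**Figure D2:**
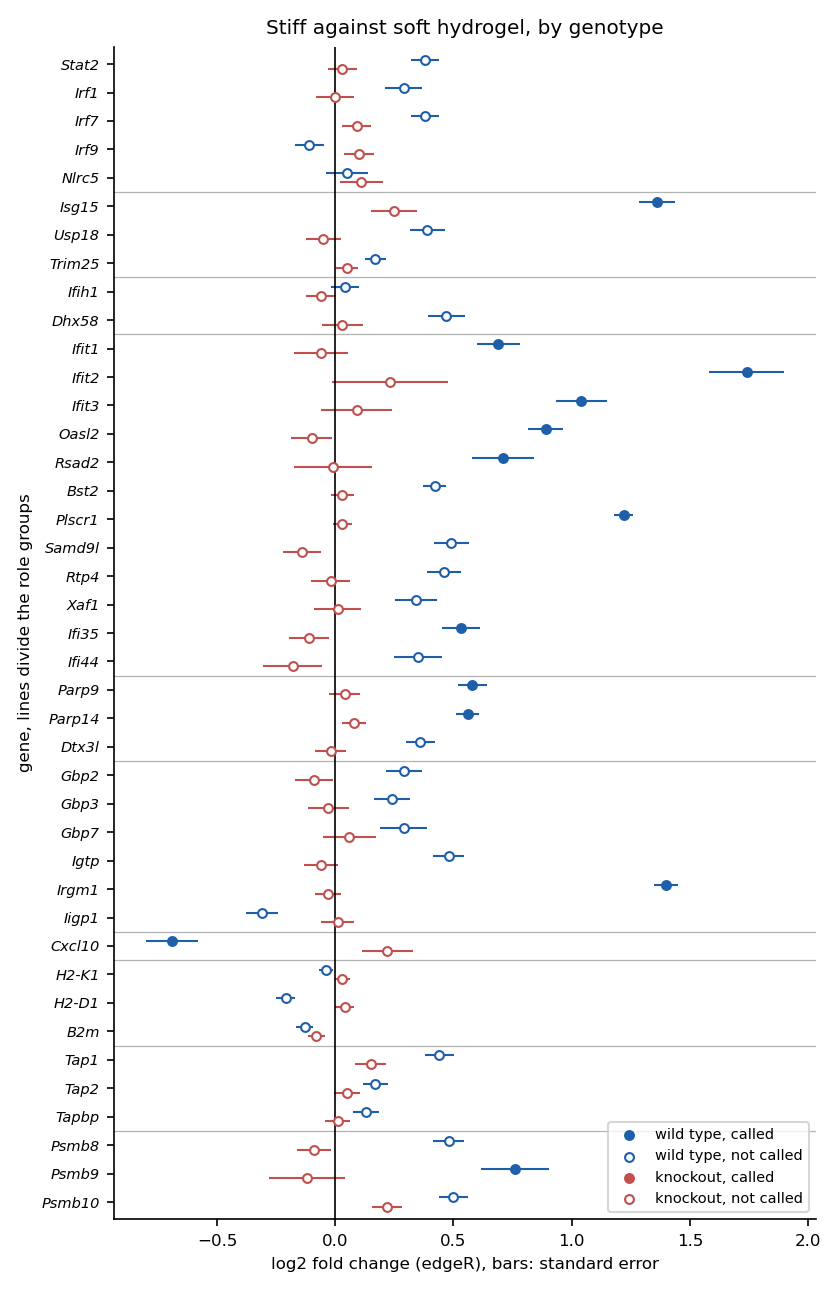
Log2 fold change of stiff against soft for each of the 41 genes in WT (blue) and KO (red), with bars of 1 standard error and filled points where the gene was called. Blue points reach 1.74 at Ifit2 and -0.69 at Cxcl10, while every red point lies between -0.18 and 0.25 and is open.

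The comparison of KO with WT asks what the genotype changes on each hydrogel. On the soft hydrogel 19 of the 41 genes were called lower in KO, beside 4.65% of all tested genes, and edgeR called none higher, beside 2.02%, with 0 at an unadjusted p under 0.05 and 0 by DESeq2. On the stiff hydrogel 29 were called lower, beside 15.0%, and 1 higher, Cxcl10, beside 13.7%. The median log2 fold changes were -0.49 and -0.89, and on stiff the median over all tested genes was 0.011. All 19 genes called on soft were interferon response genes, and the 29 on stiff were 25 of the 31 interferon response genes and 4 of the 10 presentation genes. Both hydrogels called 18 of the 41 genes lower in KO, beside 531 genes or 3.72% of those tested. The stiff hydrogel alone called 11, and the soft one alone called Iigp1. The 2 KO comparisons and the 2 stiffness comparisons share libraries, so their values are set side by side and are not independent.

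**Figure D3:**
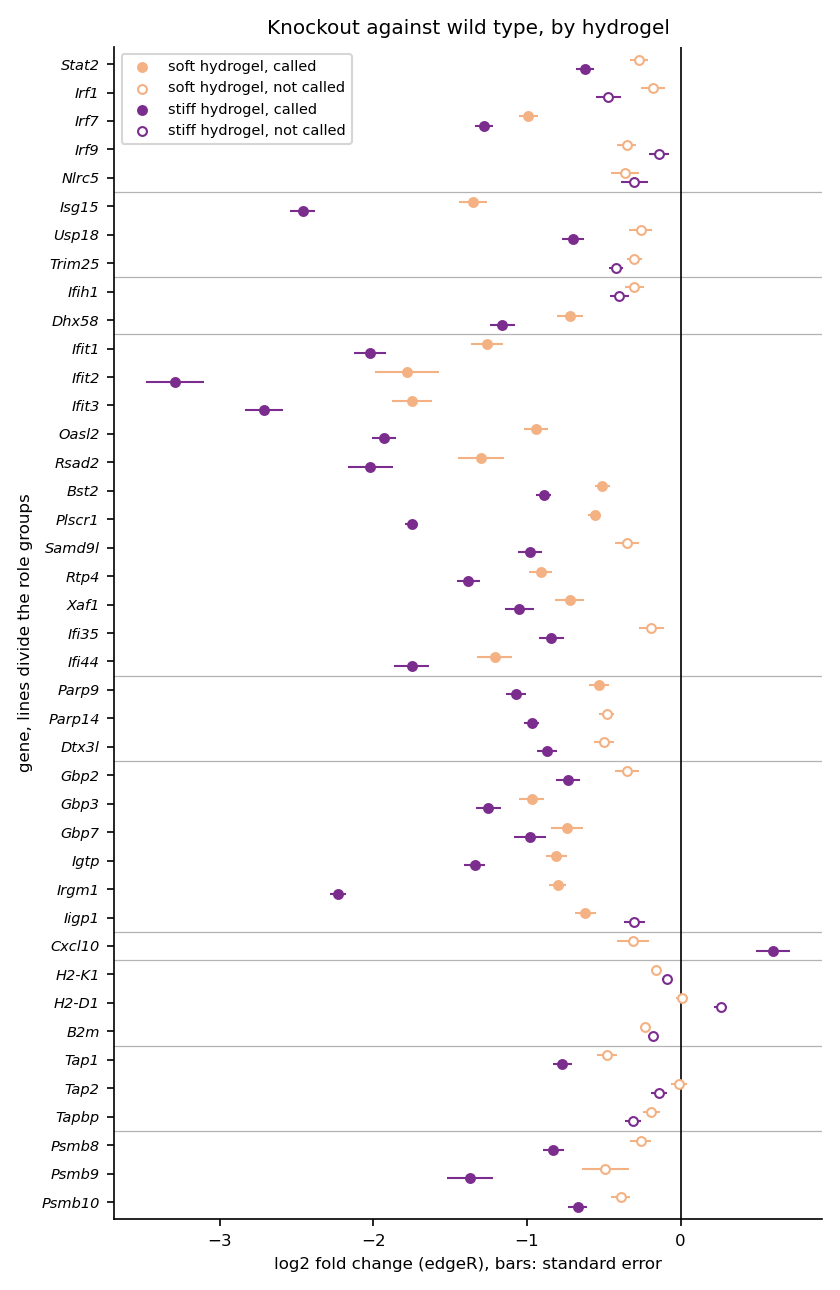
Log2 fold change of KO against WT for each of the 41 genes on the soft (orange) and the stiff (purple) hydrogel, with bars of 1 standard error and filled points where the gene was called. Purple points lie to the left of orange ones for most interferon response genes, down to -3.29 at Ifit2, while Irf9, Nlrc5, Iigp1, Cxcl10, H2-K1, H2-D1 and B2m have the purple point to the right.

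The transcription factors of the pathway differed widely among themselves. Irf7, which amplifies the type I interferon response, was at 176 and 199 CPM in WT on soft, 246 and 242 CPM in WT on stiff, 91.6 and 97.1 CPM in KO on soft and 105 and 95.8 CPM in KO on stiff. Its KO libraries lay below all WT libraries, 1.98-fold lower on soft (log2 fold change -0.99, SE 0.061, adjusted p = 1.16e-09) and 2.43-fold lower on stiff (-1.28, SE 0.0609, adjusted p = 3.55e-12). Irf7 overlaps Phrf1 on the other strand, whose mean count was 24.8% of its own. Stat2, a subunit of the ISRE-binding complex, was at 73.5 and 79.3 CPM in WT on soft, 98.3 and 99.9 CPM in WT on stiff and 60.3 to 66.1 CPM in KO. It was called in KO against WT on stiff only, 1.54-fold lower (log2 fold change -0.62, SE 0.059). Irf9, the DNA-binding member of that complex, was called nowhere, at 51.5 to 58.8 CPM in WT and 45.1 to 49.5 CPM in KO. Its log2 fold change of -0.35 for KO against WT on soft was under the minimum size (edgeR adjusted p = 0.000415). Irf9 overlaps Rnf31 on the same strand. Irf1, an activator that binds the same kind of element, was at 25.4 to 31.8 CPM in WT and 22.5 to 22.8 CPM in KO, with a log2 fold change of -0.47 on stiff that missed the minimum size. Nlrc5, the activator of MHC class I genes, was at 29.1 to 30.8 CPM in WT and 22.4 to 27.1 CPM in KO and was not called.

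In the ISG15 system the modifier moved more than its enzymes. Isg15, a ubiquitin-like protein that is attached to other proteins, was at 33.3 and 34.5 CPM in WT on soft, 92.1 and 81.5 CPM in WT on stiff, 14.2 and 12.3 CPM in KO on soft and 16.3 and 15.4 CPM in KO on stiff. The 4 groups did not overlap. Isg15 was 2.56-fold higher on stiff than on soft in WT (adjusted p = 7.8e-11), and 5.49-fold lower in KO than in WT on stiff (log2 fold change -2.46, SE 0.0837, adjusted p = 3e-14). Its interaction was -1.11 (SE 0.124, adjusted p = 1.61e-06). Usp18, the protease that removes ISG15 and restrains the receptor, was at 49.5 and 51.5 CPM in WT on soft, 63.9 and 68.0 CPM in WT on stiff and 37.5 to 44.1 CPM in KO, and was called lower in KO on stiff (log2 fold change -0.70, SE 0.074). Trim25, a ubiquitin and ISG15 ligase, was called nowhere, at 165 to 186 CPM in WT and 133 to 143 CPM in KO.

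Of the 2 RNA sensors, Dhx58 (LGP2) was called and Ifih1 (MDA5) was not. Dhx58 was at 31.3 and 35.8 CPM in WT on soft, 46.4 and 45.9 CPM in WT on stiff and 19.8 to 20.9 CPM in the 4 KO libraries. It was called lower in KO on soft (log2 fold change -0.72, SE 0.0831) and on stiff (-1.16, SE 0.0822), and its rise of 0.47 on stiff in WT was under the minimum size. Ifih1 was at 69.2 to 77.1 CPM in WT and 54.9 to 57.7 CPM in KO, with log2 fold changes of -0.30 and -0.40 for KO against WT.

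The 12 antiviral effectors showed the widest changes. In WT 7 of the 12 were called higher on stiff, in KO against WT 10 were called lower on soft and all 12 on stiff, and 9 were called lower in the interaction. Ifit1, Ifit2 and Ifit3, neighbours on chromosome 19 that encode proteins binding viral RNA, differed in level and were all highest in WT on stiff. Ifit2 was at 5.16 and 5.61 CPM in WT on soft, 18.3 and 17.6 CPM in WT on stiff, 1.52 and 1.59 CPM in KO on soft and 2.2 and 1.43 CPM in KO on stiff. The KO levels rest on 29 to 47 counts per library. Ifit2 was 9.81-fold lower in KO than in WT on stiff (log2 fold change -3.29, SE 0.186, adjusted p = 4.21e-11), and its interaction was -1.51 (SE 0.294, adjusted p = 0.000706).

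Ifit3 was at 14.8 and 13.3 CPM in WT on soft, 28.7 and 29.4 CPM in WT on stiff and 4.02 to 4.64 CPM in KO. It was 2.06-fold higher on stiff in WT and 6.53-fold lower in KO on stiff (log2 fold change -2.71, SE 0.125). Of the 64-base windows of its transcript 45.4% also occur in Ifit3b, so the split of reads between these copies is uncertain. Ifit1 was at 25.2 and 27.2 CPM in WT on soft, 40.9 and 43.7 CPM in WT on stiff and 9.39 to 11.5 CPM in KO. It was 1.62-fold higher on stiff in WT and 4.05-fold lower in KO on stiff. In each of the IFIT genes the 2 WT groups and the KO libraries formed 3 separate ranges, with the KO groups overlapping each other.

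Oasl2, a relative of the oligoadenylate synthetases, was at 29.6 and 28.7 CPM in WT on soft, 54.0 CPM in both WT libraries on stiff, 15.3 and 15.1 CPM in KO on soft and 14.4 and 14.0 CPM in KO on stiff. It was 1.85-fold higher on stiff in WT (adjusted p = 1.58e-08) and 3.8-fold lower in KO on stiff, with an interaction of -0.99 (SE 0.113, adjusted p = 2.35e-06). Rsad2, which encodes viperin, was at 18.2 and 17.9 CPM in WT on soft, 29.3 and 30.0 CPM in WT on stiff and 5.67 to 8.94 CPM in KO. The KO stiff libraries of Rsad2 stood apart from each other at 5.67 and 8.94 CPM, and its interaction of -0.73 (SE 0.21, adjusted p = 0.014) lost its call without KO soft replicate 1 (-0.62, adjusted p = 0.0867) or KO stiff replicate 1 (-0.43, adjusted p = 0.0849).

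Plscr1, a phospholipid scramblase family protein with antiviral activity, was the effector with the smallest error. It was at 300 and 316 CPM in WT on soft, 722 and 715 CPM in WT on stiff, 208 CPM in both KO libraries on soft and 210 and 217 CPM in KO on stiff. It was 2.33-fold higher on stiff in WT (log2 fold change 1.22, SE 0.0402, adjusted p = 5.16e-14) and 3.36-fold lower in KO on stiff (adjusted p = 1.8e-16), with an interaction of -1.19 (SE 0.0571, adjusted p = 2.78e-11). Plscr1 shares 8.98% of its windows with Gm5530.

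The other 6 effectors changed less in WT. Bst2 (tetherin, which holds budding virus at the membrane) was the most abundant of them, with means of 373 and 498 CPM in WT on soft and stiff and 262 and 268 CPM in KO. It was called lower in KO on soft (-0.51, SE 0.0481) and on stiff (-0.89, SE 0.0482). The call on soft was lost with upper-quartile factors (-0.49) or with library size only (-0.45). Ifi44 (-1.21 on soft and -1.75 on stiff), Rtp4 (-0.91 and -1.38) and Xaf1 (-0.72 and -1.05) were called lower in KO on both hydrogels, Samd9l (-0.98) and Ifi35 (-0.84) on stiff. Ifi35 was the one of these 6 called higher on stiff in WT (log2 fold change 0.53, SE 0.0805), a call that was lost without WT stiff replicate 2 (0.46). Rtp4 overlaps Masp1 on the other strand, whose mean count was 244% of its own.

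Parp9 and Dtx3l encode an ADP-ribosyltransferase and the ubiquitin ligase it works with, and Parp14 encodes a relative of Parp9. Parp9 was at 79.5 and 72.0 CPM in WT on soft, 114 and 113 CPM in WT on stiff and 49.8 to 55.5 CPM in KO. Parp14 was at 110 and 111 CPM in WT on soft, 165 and 161 CPM in WT on stiff and 78.3 to 85.5 CPM in KO, and Dtx3l at 61.1 and 59.5 CPM, 78.5 and 76.0 CPM and, in KO, a mean of 42.6 CPM on soft and 42.2 CPM on stiff. WT stiff was the highest group and the KO groups the lowest in all 3 genes. Log2 fold changes for KO against WT on stiff were -1.07, -0.97 and -0.87 for Parp9, Parp14 and Dtx3l, all called. Parp9 and Dtx3l overlap on opposite strands, and without a stated strand setting reads of the overlap cannot be told apart.

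The interferon-inducible GTPases, which act on the vacuoles of intracellular pathogens, were lower in KO, and in WT most of their changes with stiffness were small. All 6 passed the adjusted p on stiff against soft in WT, 5 upward and 1 downward, and 5 of them were under the minimum size. On soft 5 of the 6 were called lower in KO and on stiff 5, with Gbp2 missing from the first and Iigp1 from the second. Irgm1 was the one called in WT for stiffness. It was at 92.2 and 89.8 CPM in WT on soft, 243 and 238 CPM in WT on stiff, 52.1 and 52.4 CPM in KO on soft and 53.3 and 49.2 CPM in KO on stiff. It was 2.64-fold higher on stiff in WT (log2 fold change 1.40, SE 0.0508, adjusted p = 1.8e-13) and 4.7-fold lower in KO on stiff, with an interaction of -1.43 (SE 0.0753, adjusted p = 9.35e-11). Igtp, also of the IRG family, was at 45.4 and 50.7 CPM in WT on soft, 67.3 and 66.2 CPM in WT on stiff and 26.2 to 27.6 CPM in KO. It was 2.53-fold lower in KO on stiff, and it overlaps Irgm2 on the same strand and shares 8.78% of its windows with it.

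The guanylate-binding proteins were lowest in KO as well, and on soft Gbp3 had the largest fall of the 6 GTPases. Gbp3 was at 38.1 and 36.9 CPM in WT on soft, 46.1 and 42.7 CPM in WT on stiff and 18.2 to 20.0 CPM in KO. Gbp7 was at 23.8 and 19.8 CPM, 27.0 and 26.7 CPM and 12.7 to 14.1 CPM, and Gbp2 at 40.1 and 35.8 CPM, 46.5 and 46.3 CPM and 27.0 to 31.3 CPM. Log2 fold changes for KO against WT were -0.97 and -1.25 (soft and stiff) for Gbp3, -0.74 and -0.98 for Gbp7, and -0.35 (not called) and -0.73 for Gbp2. Gbp7 shares part of its windows with Gbp3 and Gm43802. Iigp1 stood apart from the other GTPases, with 103 and 89.6 CPM in WT on soft, 81.0 and 74.8 CPM in WT on stiff and 60.4 to 65.9 CPM in KO. It was called lower in KO on soft (-0.62, SE 0.0682, adjusted p = 1.97e-06), and its fall on stiff in WT was under the minimum size (-0.31, SE 0.0677).

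Cxcl10, the chemokine that draws T cells through the receptor CXCR3, was the one gene of the 41 called lower on stiff in WT and higher in KO on stiff. It was at 20.1 CPM in both WT libraries on soft, 11.5 and 13.5 CPM in WT on stiff, 15.1 and 17.5 CPM in KO on soft and 18.8 and 19.1 CPM in KO on stiff. WT on stiff was its lowest group and WT on soft its highest, and the 4 groups did not overlap. It was 1.61-fold lower on stiff than on soft in WT (log2 fold change -0.69, SE 0.11, adjusted p = 6.15e-05) and 1.52-fold higher in KO than in WT on stiff (0.60, SE 0.111, adjusted p = 0.000192). That last call was lost without WT stiff replicate 1 (0.48). Its interaction was 0.91 (SE 0.154, adjusted p = 0.000182). The summed macrophage markers had their lowest level in the same group.

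**Figure D4:**
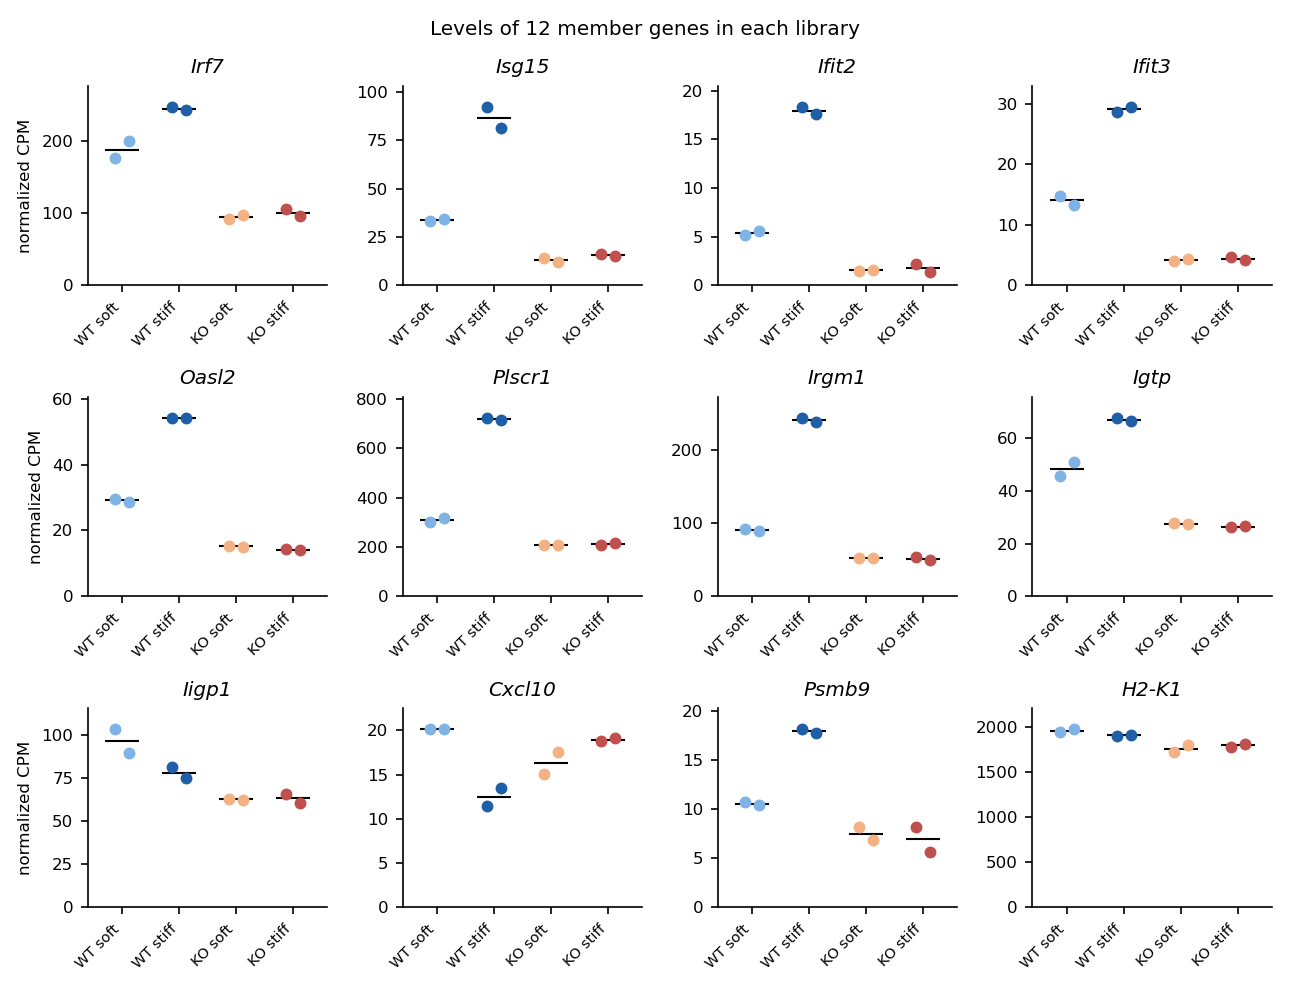
Normalized CPM of 12 of the genes in each library (points, 2 per group) with the group mean (line), each axis starting at 0. WT stiff is the highest group for Irf7, Isg15, Ifit2, Ifit3, Oasl2, Plscr1, Irgm1, Igtp and Psmb9, WT soft for Iigp1 and Cxcl10, and H2-K1 stays between 1722 and 1977 CPM.

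None of the 3 class I chains, which had the highest CPM of the 41 genes, was called. H2-K1 and H2-D1, the heavy chains that hold the peptide, ranged from 1722 to 1977 CPM and from 1318 to 1614 CPM over the 8 libraries, and B2m, the shared light chain, from 1105 to 1438 CPM. The largest log2 fold change among them was 0.26 (SE 0.0397, adjusted p = 3.01e-05), for H2-D1 in KO against WT on stiff, with the KO stiff libraries above the WT stiff ones but not above both WT soft ones, and under the minimum size. B2m was at -0.23 and -0.18 for KO against WT on soft and stiff, and H2-K1 at -0.16 and -0.09. The H2-K1 levels were 1907 to 1977 CPM in WT and 1722 to 1818 CPM in KO. H2-D1 shares 8.34% of its windows with H2-Q1, H2-Q7 and Gm7030.

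In KO against WT on stiff, Tap1 and the immunoproteasome subunits moved more than the chains, while Tap2 (-0.14) and Tapbp (-0.31) moved little. Tap1, a subunit of the peptide transporter, was at 53.7 and 58.4 CPM in WT on soft, 73.4 and 78.0 CPM in WT on stiff, 40.7 and 39.4 CPM in KO on soft and 44.5 and 44.4 CPM in KO on stiff. It was called lower in KO on stiff (-0.77, SE 0.0627, adjusted p = 8.08e-09). Its partner subunit Tap2 was called nowhere and was at 60.2 to 68.9 CPM in WT and 60.4 to 63.5 CPM in KO. Tapbp, which encodes tapasin and bridges the transporter to the heavy chain, was not called, at 249 to 290 CPM in WT and 221 to 239 CPM in KO.

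All 3 immunoproteasome subunits were called lower in KO on stiff, and none on soft. Psmb8 was at 46.5 and 42.1 CPM in WT on soft, 59.7 and 64.3 CPM in WT on stiff and 34.8 to 37.7 CPM in KO, and Psmb10 at 59.6 and 64.4 CPM, 88.8 and 85.9 CPM and 46.3 to 57.2 CPM. Psmb9 was the least abundant, at 10.7 and 10.4 CPM in WT on soft, 18.1 and 17.7 CPM in WT on stiff and 5.68 to 8.16 CPM in KO. Log2 fold changes on stiff were -0.83 (Psmb8), -0.67 (Psmb10) and -1.37 (Psmb9, SE 0.151, adjusted p = 4.76e-07). Psmb9 was the presentation gene called higher on stiff in WT by edgeR (0.76, SE 0.144, adjusted p = 0.000344), and DESeq2 also called Psmb10 (0.51). Psmb9 overlaps Tap1 on the other strand, whose mean count was higher than its own. The subunits that they replace, Psmb5, Psmb6 and Psmb7, showed 0 called lower by edgeR on either hydrogel, with 0 at an unadjusted p under 0.05, and Psmb5 was called higher in KO on stiff (0.56, SE 0.0456).

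Levels between genes were compared per length, as the mean CPM per kilobase of gene length over the 8 libraries. B2m stood first at 1457, followed by H2-K1 at 633, H2-D1 at 580, Bst2 at 388 and Plscr1 at 147. Ifit2 stood last at 1.7 and Psmb9 next to last at 2.93. The 4 genes at the top lay at or above the 99.3 percentile of all tested genes and Ifit2 at the 33.5 percentile.

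Of the ligands listed, the counts held next to none. Ifnb1, Ifna1, Ifna2, Ifna4, Ifna5, Ifne, Ifng, Ifnl2 and Ifnl3 had 0 counts in all 8 libraries, each below the limit of 3 counts. Ifnk, a type I interferon, had 11 and 7 counts in WT on soft, 26 and 28 in WT on stiff, 2 and 7 in KO on soft and 3 and 3 in KO on stiff. It was called higher on stiff in WT (log2 fold change 1.70, SE 0.528, adjusted p = 0.0154) and lower in KO on stiff (-3.16, SE 0.64, adjusted p = 0.000443), on these few counts.

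Of 14 receptors, kinases and negative regulators, 1 was called higher on stiff in WT (7.14%, beside 10.0% of all tested genes) and 1 lower in KO on soft (7.14%, beside 4.65%), in both cases Ifngr1. Ifngr1, the ligand-binding chain of the interferon gamma receptor, was at 73.0 and 74.1 CPM in WT on soft, 152 and 148 CPM in WT on stiff, 52.1 and 50.8 CPM in KO on soft and 54.1 and 52.5 CPM in KO on stiff. It was 2.05-fold higher on stiff in WT and 2.82-fold lower in KO on stiff, with an interaction of -0.98 (SE 0.0743, adjusted p = 1.13e-08). Of 12 tested nucleic acid sensors and adaptors, 4 were called higher on stiff in WT (33.3%, beside 10.0% of all tested genes). In KO, 1 was called lower on soft (8.33%, beside 4.65%) and 6 on stiff (50.0%, beside 15.0%). The largest fold changes in KO on stiff were those of Zbp1 (-1.86), Tlr3 (-1.07), Ikbke (-0.96) and Ddx58, which encodes RIG-I (-0.89).

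A list of 44 other interferon-stimulated genes, also chosen with earlier results of these data known, gave counts in the same directions. Of these, 40 were tested. In WT 13 were called higher on stiff (32.5%, beside 10.0% of all tested genes) and 1 lower (2.5%, beside 9.26%). In KO 12 were called lower on soft (30.0%, beside 4.65%). On stiff 24 were called lower in KO (60.0%, beside 15.0%) and 2 higher (5.0%, beside 13.7%). Median log2 fold changes were 0.34, -0.46 and -0.86. Tgtp1, a T cell-specific GTPase family member, had the largest, from 3.0 and 3.78 CPM in WT on soft to a mean of 22.8 CPM in WT on stiff, against 0.593 to 1.31 CPM in KO. Its log2 fold changes were 2.77 on stiff in WT and -4.56 in KO on stiff. It was followed in KO on stiff by Ifi47 (-2.70), Ifit3b (-2.50) and Oas3 (-2.36). The 2 called higher in KO on stiff were the chemokine Ccl5 (1.57) and Irf8 (0.63), named after their values were seen, and Ccl5 was also the 1 called lower on stiff in WT (-1.93).

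Further presentation genes were listed by class. Of 14 other class I genes, 1 was called higher on stiff in WT (7.14%, beside 10.0% of all tested genes) and 1 lower (7.14%, beside 9.26%). In KO against WT on stiff 2 were called lower (14.3%, beside 15.0%) and 1 higher (7.14%, beside 13.7%). Each of these shares was below that of all tested genes. Psme2, a proteasome activator subunit, was called higher on stiff in WT (0.71) and lower on stiff in KO (-0.63, SE 0.0972, adjusted p = 0.0227). That fall was 1 of the 3 calls among all tested genes in that comparison. It was also called lower in KO against WT on stiff (-0.89) and in the interaction (-1.34). H2-Q7, a class Ib heavy chain, was called lower on stiff in WT (-0.88) and higher in KO on stiff (0.75), and H2-M3 was called lower in KO on stiff as well (-0.53). Class II genes, which antigen-presenting cells use, were called higher in KO on stiff for 3 of 6 tested genes (50.0%, beside 13.7% of all tested genes). These were Cd74 (2.00), H2-Aa (1.93) and H2-Eb1 (1.31), at 0.559 to 11.4 CPM over the 8 libraries. The summed macrophage markers were higher in KO on stiff as well.

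Promoters were found for 33 of the 41 genes in the RefSeq table, from 250 bases before to 50 after the start. Of these genes 5 had more than 1 promoter, and a match in any of them was counted. Dhx58, Iigp1, Nlrc5, Parp9, Parp14, Rtp4, Tap2 and Usp18 had no entry. An ISRE match stood in 14 of the 33 (42.4%), beside 3.72% of the 10329 tested genes and 3.99% of all 27025 genes with a promoter, and a GAS match in 8 (24.2%), beside 8.41% and 9.55%. Counted per promoter, 3.44% and 8.3% of all 32851 promoters held them. At least one of both stood in 19 (57.6%), beside 11.6% of tested genes. The TEAD motif (GGAATG, either strand) stood in 3, Bst2, Gbp2 and Samd9l (9.09%), beside 14.7% of tested genes. Of the 25 response genes with a promoter 13 held an ISRE match, and of the 8 presentation genes 1, B2m. In Bst2 the GAS match overlaps both an ISRE match and the TEAD match.

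Genes with and without a match were described side by side, with no test. The median log2 fold change in KO against WT on stiff was -1.12 for the 14 with an ISRE match, -0.84 for the 5 with a GAS match alone and -0.82 for the 14 with neither. These groups also differ in role. Those with neither include the presentation genes H2-K1, H2-D1, Tap1, Tapbp, Psmb9 and Psmb10, while B2m is the only presentation gene with an ISRE match. The part of role in these medians was not tested. Oasl2 (-1.93) and Ifi44 (-1.75) had neither, and B2m (-0.18), Ifih1 (-0.40) and Cxcl10 (0.60) held an ISRE match. A match says that these letters stand in the window, and not that a factor binds there.

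**Figure D5:**
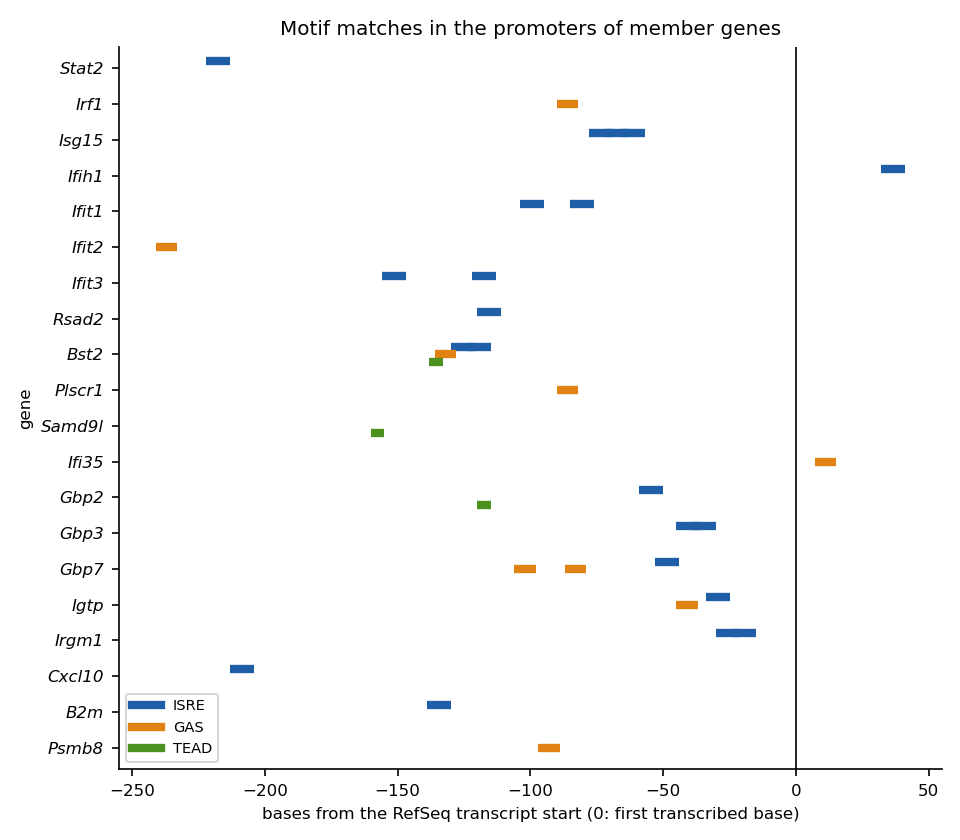
Positions of ISRE (blue), GAS (orange) and TEAD (green) matches in bases from the RefSeq transcript start for the 20 genes with at least 1 match, with the start at 0. ISRE matches begin at -222 in Stat2, -213 in Cxcl10 and from -156 on in the other genes, and that of Ifih1 lies after the start, at 32.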

How the data were processed

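RNA of the hepatocyte cultures was sequenced as 8 libraries, and the authors deposited 1 table of raw counts per gene, which was used as deposited. The study's methods name featureCounts for the counting. The submitters' processing notes name HISAT2 2.0.5, DESeq2 1.20.0, edgeR 3.22.5, GATK 4.1.4.1 and the build mm9. The study's methods name dUTP in the cDNA synthesis, a step that can mark strand, while how strand entered the counting is not given in the sources used here. Few gene positions of the table matched GRCm38.p6, so none are printed.

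Groups were taken from the labels. Genes passing filterByExpr (14279) were scaled by TMM and fitted over all 8 libraries, 1 term per group, with edgeR 4.0.16 (quasi-likelihood test, R 4.3.3). P-values of the 4 contrasts and the interaction were adjusted by Benjamini-Hochberg, and calls needed 0.05 and a log2 size over 0.5. The log2 CPM behind the median deviations and the replicate correlations have a prior count of 2, and fitted fold changes use the edgeR default. The fit was tested on simulated data. Alternatives were DESeq2 1.42.0, other scalings, no filter, other fold thresholds, fits of 4 libraries, a replicate block and leaving out each library.

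The members, the lists of related genes and the markers were chosen with earlier results of these data known. Every member is named, with values per library for at most 6 called members of a role group by size of change. Of each related list at most the 4 called genes with the largest change are named, beside those said to be chosen after their values were seen. The result of 1 gene of these lists is not reported here. Promoters came from RefSeq (GRCm38.p6), where 33 of 41 members matched. Shared sequence was measured as the percent of 64-base windows of a transcript found in another gene. Figures were drawn with matplotlib 3.10.9.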

Additional observations from a re-analysis of the deposited data

Results flagged for a closer look

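The stiffness effect differed between the genotypes, by the edgeR interaction test, for 16 of the 41 genes. The values are log2 differences, the KO effect minus the WT effect. Among the antiviral effectors they were -1.51 for Ifit2, -1.19 for Plscr1, -0.99 for Oasl2, -0.96 for Ifit3, -0.75 for Ifit1, -0.73 for Rsad2, -0.65 for Ifi35, -0.63 for Samd9l and -0.54 for Ifi44. The GTPases Irgm1 and Igtp were at -1.43 and -0.53, Isg15 at -1.11 and Parp9 at -0.54. The immunoproteasome subunits Psmb9 and Psmb8 were at -0.87 and -0.57. The chemokine Cxcl10 was the one above 0, at 0.91. Of these genes Samd9l, Ifi44, Igtp and Psmb8 were not called for stiffness in either genotype, and their interaction is the test of the difference itself.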

How the results depend on the processing

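No result changed direction. With an absolute log2 fold change over 1, the genes called were 5 higher and 0 lower on stiff in WT, 6 lower in KO on soft, 17 lower and 0 higher in KO on stiff, and 4 lower and 0 higher in the interaction. With no minimum fold change they were 32 higher and 4 lower on stiff in WT, 36 lower in KO on soft, 38 lower and 2 higher in KO on stiff, and 26 lower and 3 higher in the interaction. Shares of all tested genes at these thresholds were not counted, so these counts have no reference level. Medians moved most with library size only (-0.44 in KO on soft and -0.84 on stiff), and were -0.88 in KO on stiff with upper-quartile scaling and -0.40 in the interaction with no filter. DESeq2 kept all 78 calls and added Psmb10 (0.51) and Samd9l (0.50) on stiff in WT, as did its size factors in edgeR. Library size only lost Parp9 (-0.48) and Bst2 (-0.45) in KO on soft. No filter lost Bst2 there (-0.50), kept 77 calls and added Psmb10 and Samd9l on stiff in WT and Parp14 in the interaction (-0.50).

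Leaving out 1 library at a time gave 12 to 16 genes higher and 1 lower on stiff in WT, 0 either way in KO, 0 higher and 19 to 20 lower in KO on soft, 0 to 1 higher and 29 lower in KO on stiff, and 14 to 16 lower and 1 higher in the interaction. The medians ranged from 0.38 to 0.42 on stiff in WT, 0.0 to 0.02 in KO, -0.5 to -0.46 in KO on soft, -0.92 to -0.9 in KO on stiff and -0.43 to -0.37 in the interaction. The count of 0 came without WT stiff replicate 1, where Cxcl10 stood at 0.48. The count of 16 higher came without WT soft replicate 2. Single calls were also lost for Bst2 in KO on soft (-0.46 without KO soft replicate 1 and -0.43 without WT soft replicate 2), and for Parp9 in KO on soft (-0.45 without KO soft replicate 1 or WT soft replicate 1). In the interaction they were lost for Parp9 (-0.47 without KO soft replicate 2 and -0.49 without WT soft replicate 2), Igtp (-0.47 without WT soft replicate 1) and Ifi44 (-0.39 without WT soft replicate 2 and -0.51 without WT stiff replicate 2, with an adjusted p of 0.0575 by edgeR).

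The fit with the replicate number as a block kept all 78 calls. Libraries with the same number correlated at -0.101 to 0.0424 in their deviations, so the numbers were not taken as pairs.

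With 2 libraries a group the fit had 4 residual degrees of freedom, and changes near the minimum size are uncertain, as for Bst2 and Parp9 in KO on soft. How reads of genes that overlap or share sequence with a neighbour were split was not tested.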
